A study of Mus musculus with 16 samples.

Results

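Circadian clock genes were read in alveolar type 2 (AT2) cells of the mouse, lung epithelium that makes surfactant, as 10 of the 27179 gene identifiers of a count table. The 10 genes, Per1, Per2, Per3, Cry1, Cry2, Nr1d1, Nr1d2, Dbp, Tef and Clock, were taken by symbol as a check on the time of sampling. The rule uses no measured value, although the list was drawn up with earlier results of these data known, and all 10 passed the filter on low counts. The question they address is whether the 4 groups of libraries, and the animals within them, stood alike in their clock transcripts.

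The study set CD44+ against CD44- AT2 cells in lungs described as control or Sftpc mutant, 4 lungs each, where Sftpc encodes surfactant protein C. Live Epcam+ CD200hi cells that lacked CD104, CD31 and CD45 were sorted, and the CD44 stain divided them into the fractions sequenced here. The count columns are named R26 (animals 1, 2, 7 and 8) and OG (animals 3, 5, 6 and 7), with a CD44- and a CD44+ library from each animal, so each prefix has a CD44- group and a CD44+ group of 4 libraries. The labels give the genotypes SP-C WT and SP-C Mutant and 1 treatment text, OG TMX, on all 16 samples. They do not tie a column prefix to a genotype, so each comparison of OG with R26 is between prefixes, and reading R26 as SP-C WT is an inference. The labels name no promoter or Cre line, and they give no strain, age, harvest time or batch. Library totals ran from 9022471 to 21363816 counts, so that 1 count was worth 0.0468 to 0.111 CPM, counts scaled per 1000000 counts of a library. Levels below are CPM scaled by TMM, a trimmed mean of log ratios between libraries. The AT2 marker list, 9 genes that include Sftpc, was present in every library at summed levels of 20497 to 163977 CPM.

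The mammalian clock is a loop of transcription factors. CLOCK, or its relative NPAS2, pairs with BMAL1 (encoded by Arntl) and activates genes through E-boxes, among them the Per, Cry, Nr1d, Dbp and Tef genes, and the PER and CRY proteins then repress that pair. NR1D1 and NR1D2 (the REV-ERB nuclear receptors) repress Arntl, Npas2 and Clock through ROR elements, while DBP, TEF and HLF, the PAR-domain bZIP factors, act at D-boxes. In a rhythmic tissue such as the lung, Nr1d1 and Dbp transcripts peak at times of day when Arntl and Npas2 transcripts are low. Per1 is also known as an early-response gene that glucocorticoids and cAMP induce.

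Promoter windows are printed for a selection of genes in which a motif was matched, to show the elements through which the loop is known to act. The windows of Nr1d2, Dbp, Clock and Npas2 held no match and are not printed. Each window runs from 250 bases before to 50 bases from the annotated start, from RefSeq on GRCm38.p6, and is written 5′ to 3′ on the strand of the gene. A gene with several annotated starts has several windows, and the Per1 and Tef windows printed are at starts inside the gene, downstream of its first base. The Tef window at the first start, not printed, also held 1 E-box, and the other Per1 window held none. The other Arntl window, not printed, held no ROR element. Capitals mark a motif on either strand: CACGTG (E-box) in Per1, Cry1 and Tef, CACGTT (E-prime box, AACGTG on the other strand) in Cry1 and Nr1d1, TTATGTAA (D-box) in Per3, and the ROR element (AAN directly before TAGGTCA) in Arntl.
Per1 (chr11:69098699-69098998, plus strand): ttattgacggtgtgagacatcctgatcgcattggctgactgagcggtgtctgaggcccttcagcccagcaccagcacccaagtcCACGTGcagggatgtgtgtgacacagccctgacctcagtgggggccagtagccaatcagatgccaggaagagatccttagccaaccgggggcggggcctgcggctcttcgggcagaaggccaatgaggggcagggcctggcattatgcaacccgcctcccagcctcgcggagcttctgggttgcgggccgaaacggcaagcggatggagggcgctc
Cry1 (chr10:85185005-85185304, minus strand): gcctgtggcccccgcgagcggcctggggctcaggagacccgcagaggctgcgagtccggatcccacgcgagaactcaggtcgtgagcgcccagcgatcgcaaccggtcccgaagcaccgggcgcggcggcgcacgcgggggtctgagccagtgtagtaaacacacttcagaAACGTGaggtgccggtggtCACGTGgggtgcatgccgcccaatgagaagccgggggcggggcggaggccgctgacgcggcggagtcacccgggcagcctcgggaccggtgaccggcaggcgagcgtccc
Per3 (chr4:151044616-151044915, minus strand): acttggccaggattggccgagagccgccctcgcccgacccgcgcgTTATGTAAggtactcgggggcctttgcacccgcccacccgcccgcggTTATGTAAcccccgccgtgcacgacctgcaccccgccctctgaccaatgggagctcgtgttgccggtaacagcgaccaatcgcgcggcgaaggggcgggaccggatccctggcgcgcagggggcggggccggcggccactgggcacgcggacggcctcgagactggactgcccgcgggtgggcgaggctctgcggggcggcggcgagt
Nr1d1 (chr11:98775328-98775627, minus strand): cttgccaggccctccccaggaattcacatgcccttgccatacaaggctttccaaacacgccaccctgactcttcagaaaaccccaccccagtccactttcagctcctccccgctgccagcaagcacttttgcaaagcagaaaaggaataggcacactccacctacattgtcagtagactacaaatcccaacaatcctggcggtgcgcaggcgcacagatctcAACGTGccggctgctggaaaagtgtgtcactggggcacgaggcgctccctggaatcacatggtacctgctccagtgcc
Tef (chr15:81811164-81811463, plus strand): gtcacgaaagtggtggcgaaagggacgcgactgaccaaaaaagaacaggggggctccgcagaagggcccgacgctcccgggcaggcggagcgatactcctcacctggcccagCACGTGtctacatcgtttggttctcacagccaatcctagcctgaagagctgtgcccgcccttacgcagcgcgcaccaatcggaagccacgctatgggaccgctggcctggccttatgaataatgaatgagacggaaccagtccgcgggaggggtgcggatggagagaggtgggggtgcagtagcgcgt
Arntl (chr7:113207261-113207560, plus strand): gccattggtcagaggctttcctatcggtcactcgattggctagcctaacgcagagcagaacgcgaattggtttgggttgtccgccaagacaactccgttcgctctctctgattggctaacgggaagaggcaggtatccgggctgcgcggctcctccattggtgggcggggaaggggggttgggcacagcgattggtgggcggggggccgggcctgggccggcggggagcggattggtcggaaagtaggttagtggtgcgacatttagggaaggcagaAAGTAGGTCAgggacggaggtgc
Windows were found for 9 of the 10 genes, 13 windows in all, and Per2 had none. An E-box stood in 3 of the 9, namely Per1, Cry1 and Tef, against 8.09% of the 27025 genes with a window, counting each gene once as for the 9. An E-prime box stood in Cry1, Cry2 and Nr1d1, against 5.44% of genes. Per3 was the 1 gene of the 9 with the D-box TTATGTAA or TTACGTAA, which 1.23% of genes held, and it held 2 matches. None of the 9 held the ROR element, which 0.259% of genes held, or TGACGTCA, the cAMP response element, which 2.03% held. No match overlapped another. These are matches of letters in a short window, and sites elsewhere in the genes were not searched.

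Per1 and Nr1d1 stood highest of the 10 in the R26 groups once levels were divided by exonic length. In R26 CD44- cells Nr1d1 was at 47.3 ± 6.62 CPM per kb (SD, n = 4) and Per1 at 45.7 ± 3.03 CPM per kb, with overlapping libraries. Cry2 followed at 15.6 ± 1.14, Nr1d2 at 11.6 ± 1.53, Clock at 8.62 ± 0.171 and Per2 at 7.05 ± 1.46 CPM per kb. Below them came Cry1 at 5.48 ± 0.838, Tef at 4.44 ± 0.546, Per3 at 3.74 ± 0.281 and Dbp at 2.88 ± 1.73 CPM per kb. The libraries of Cry2, Nr1d2 and Clock did not overlap each other, whereas each neighbouring pair from Clock down to Dbp overlapped. In OG CD44- cells Per1 led at 22.7 ± 1.67 CPM per kb. Cry2, Clock, Nr1d1 and Nr1d2 came next within 9.30 to 9.77 CPM per kb, and their libraries overlapped. Dbp was lowest of the 10 in all 4 groups, at 0.785 ± 0.0526 CPM per kb in the CD44- and 1.47 ± 0.112 in the CD44+ fraction of OG.

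**Figure D1:**
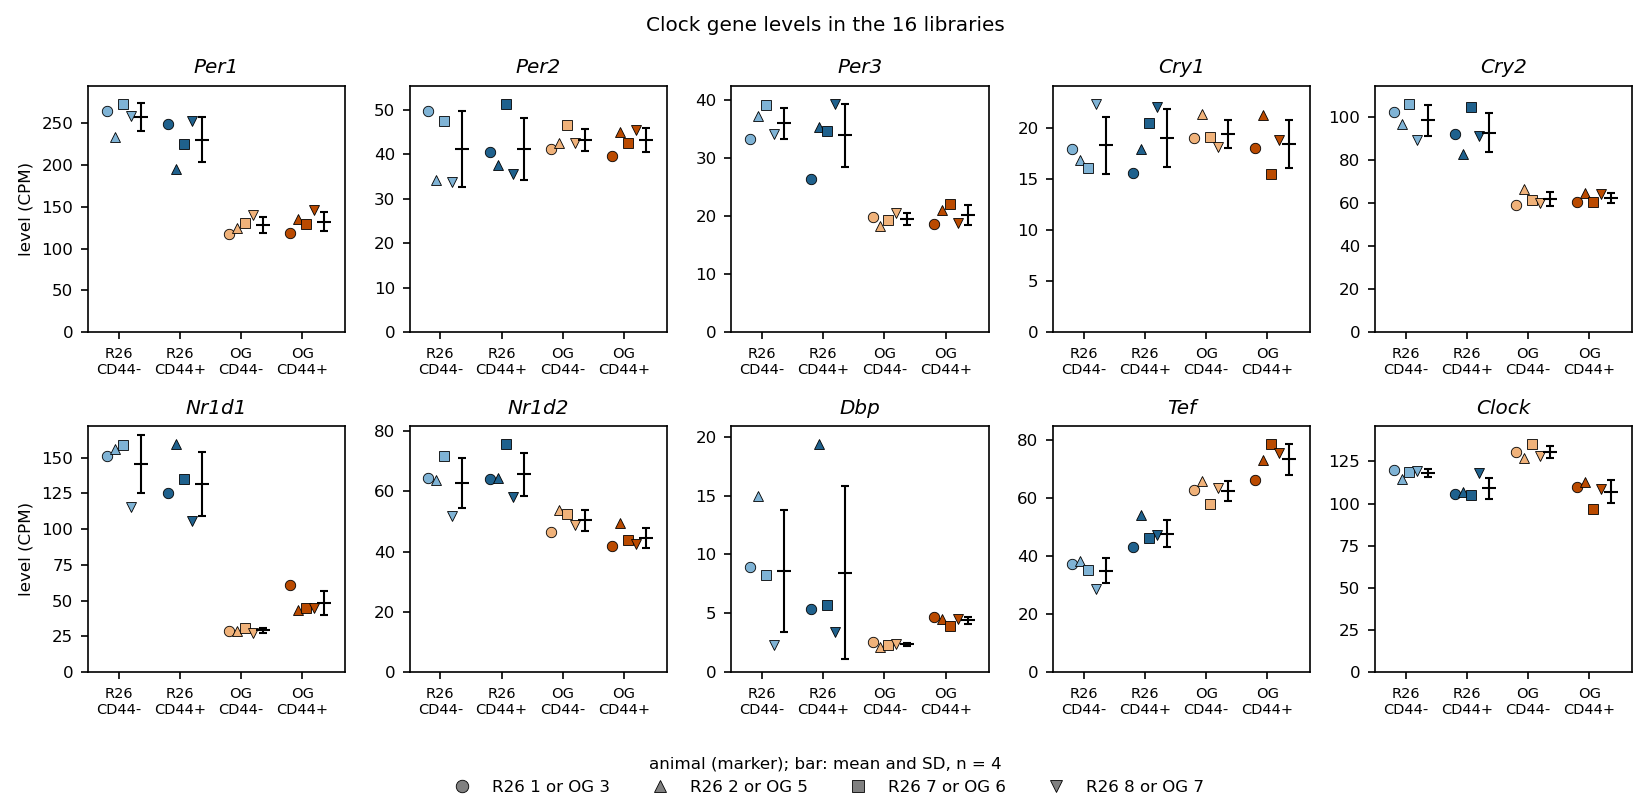
Level of each of the 10 clock genes in CPM (linear axes from 0) in the 16 libraries, by group; marker shape gives the animal, and bars give mean and SD of 4 libraries. Per1, Per3, Cry2 and Nr1d1 lie lower in both OG groups than in both R26 groups without overlap, Tef lies higher, and Dbp spans 2.33 to 15.0 CPM within R26 CD44- alone.

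The comparison of prefixes asked whether clock transcripts differed between OG and R26 cells of the same fraction. In CD44- cells 6 of the 10 genes were lower in OG, namely Nr1d1, Dbp, Per1, Per3, Cry2 and Nr1d2, and Tef and Clock were higher. In CD44+ cells Nr1d1, Per1, Per3, Cry2 and Nr1d2 were lower, 5 of the 10, and Tef was higher. Per2 and Cry1 passed the test in neither. Those counts of 8 and 6 stand beside 69% and 69.1% of the 15516 genes tested that passed an adjusted p of 0.05 (edgeR quasi-likelihood test, Benjamini-Hochberg over all genes), so the number of clock genes called was near the share of all genes. By direction, 29.6% of all genes were called lower and 39.4% higher in CD44- cells, and 34.6% lower and 34.5% higher in CD44+ cells. With library totals as the scale 68.4% of the calls in CD44- cells were higher, against 57.1% as reported. The median log2 fold change of the 10 genes was -0.50 in CD44- cells and -0.57 in CD44+ cells, where that of all genes was 0.12 and -0.01. Both comparisons used the same 8 animals, and OG and R26 animals can differ in anything that goes with the prefix, harvest time included, which cannot be told apart from genotype here.

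Among the nuclear receptors, Nr1d1 (gene 217166, chromosome 11, 98767932 to 98775333, minus strand, mm10) had the largest change of the 10. Its level was 151, 156, 159 and 115 CPM in R26 CD44- animals 1, 2, 7 and 8, and 29.0, 28.7, 31.1 and 27.6 CPM in OG CD44- animals 3, 5, 6 and 7. All OG CD44- libraries lay below all R26 libraries, a 4.98-fold lower level (log2 fold change -2.32 ± 0.15 SE, adjusted p 2.74e-09). In CD44+ cells the levels were 125, 159, 135 and 105 CPM in R26 and 61.1, 43.3, 44.8 and 44.9 CPM in OG, again without overlap (log2 fold change -1.44 ± 0.14, adjusted p 4.91e-07). Its printed promoter carries the E-prime box. Nr1d1 exons share 263 bases, 8.55% of their length, with Thra on the opposite strand, which encodes a thyroid hormone receptor, and no source states whether counting used the strand. Thra itself was at 71.7 ± 4.24 CPM in R26 CD44- cells and 30.9 ± 1.48 CPM in OG CD44- cells (log2 fold change -1.22 ± 0.07, adjusted p 3.03e-13), so reads of the pair cannot be told apart in the shared stretch. Nr1d2 (chromosome 14, 18204054 to 18239127, minus strand), the other receptor, showed a smaller difference. It was at 62.8 ± 8.25 and 50.3 ± 3.36 CPM in R26 and OG CD44- cells (log2 fold change -0.32 ± 0.09, adjusted p 0.00283, libraries overlapping). With library totals alone as the scale the Nr1d2 change was -0.15 (adjusted p 0.146), and without the CD44- library of R26 animal 8 it was -0.51. The median of all genes moved by 0.17 and -0.11 in those settings. In CD44+ cells Nr1d2 was at 65.6 ± 7.25 and 44.4 ± 3.39 CPM without overlap (log2 fold change -0.56 ± 0.09, adjusted p 1.32e-05).

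Of the Per genes, whose proteins close the loop by repressing CLOCK and BMAL1, Per1 and Per3 were lower in OG and Per2 was not called. Per1 (chromosome 11, 69095217 to 69109960, plus strand) was at 265, 233, 273 and 258 CPM in R26 CD44- animals 1, 2, 7 and 8, and at 118, 124, 130 and 140 CPM in OG CD44- animals 3, 5, 6 and 7. The highest OG library lay far below the lowest R26 library, a 2.01-fold difference (log2 fold change -1.01 ± 0.08, adjusted p 4.03e-10). In CD44+ cells Per1 was at 249, 195, 225 and 253 CPM in R26 and at 118, 135, 129 and 146 CPM in OG, also without overlap (log2 fold change -0.80 ± 0.08, adjusted p 1.57e-08). Per3 (chromosome 4, 151003652 to 151044665, minus strand), whose window holds the D-boxes, was at 36 ± 2.70 CPM in R26 and 19.5 ± 0.987 CPM in OG CD44- cells (log2 fold change -0.88 ± 0.09, adjusted p 1.19e-08). In CD44+ cells it was at 33.9 ± 5.46 and 20.2 ± 1.70 CPM (log2 fold change -0.75 ± 0.10, adjusted p 3.38e-07), and neither fraction overlapped. Per2 (chromosome 1, 91415982 to 91459324, minus strand) was at 41.3 ± 8.52 and 43.2 ± 2.40 CPM in R26 and OG CD44- cells (log2 fold change 0.07 ± 0.12, adjusted p 0.637). The R26 libraries of Per2 spanned 33.7 to 49.8 CPM and enclosed all 4 OG libraries, which spanned 41.1 to 46.6 CPM. R26 animals 2 and 8 were the lowest of R26 CD44- for Per2, at 34.1 and 33.7 CPM, and without them the log2 fold change was -0.28. That setting was added after seeing the data and left only R26 animals 1 and 7. It also moved the median of all genes by -0.11, so no p is given for it.

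The Cry genes, which encode the partners of the PER proteins, divided. Cry2 (chromosome 2, 92403646 to 92434043, minus strand) was at 98.5 ± 7.18 CPM in R26 and 61.7 ± 3.29 CPM in OG CD44- cells (log2 fold change -0.68 ± 0.06, adjusted p 1.66e-09). In CD44+ cells Cry2 was at 92.7 ± 9.05 and 62.4 ± 2.27 CPM (log2 fold change -0.57 ± 0.07, adjusted p 4.36e-08), and the R26 and OG libraries did not overlap in either fraction. Cry2 shares 295 exonic bases, 4.67% of its exons, with D930015M05Rik on the opposite strand, which was at 1.84 to 9.33 CPM over the 16 libraries. Cry1 (chromosome 10, 85131700 to 85185064, minus strand), the gene with both E-box types in its window, was at 18.3 ± 2.80 and 19.4 ± 1.38 CPM in CD44- cells (log2 fold change 0.08 ± 0.11, adjusted p 0.545). In CD44+ cells Cry1 was at 19.0 ± 2.82 and 18.4 ± 2.38 CPM (log2 fold change -0.04 ± 0.12, adjusted p 0.758), and its libraries overlapped in both fractions.

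Of the PAR-domain bZIP genes, Tef was higher in OG in both fractions and Dbp was lower in CD44- cells. Tef (chromosome 15, 81802421 to 81826863, plus strand) was at 37.4, 38.2, 35.2 and 28.7 CPM in R26 CD44- animals 1, 2, 7 and 8, and at 62.7, 65.8, 57.8 and 63.4 CPM in OG CD44- animals 3, 5, 6 and 7. All OG libraries were above all R26 libraries (log2 fold change 0.84 ± 0.08, adjusted p 1.97e-09). In CD44+ cells Tef was at 47.7 ± 4.70 and 73.3 ± 5.24 CPM without overlap (log2 fold change 0.62 ± 0.08, adjusted p 2.83e-07). Dbp (chromosome 7, 45705088 to 45710203, plus strand) was at 8.93, 15.0, 8.22 and 2.33 CPM in R26 CD44- animals 1, 2, 7 and 8, and at 2.54, 2.17, 2.29 and 2.41 CPM in OG CD44- animals. Animal R26 8 lay inside the OG range while the other R26 animals lay above it (log2 fold change -1.85 ± 0.57, adjusted p 0.0109). In CD44+ cells Dbp was at 5.34, 19.4, 5.74 and 3.39 CPM in R26 and at 4.69, 4.47, 3.90 and 4.49 CPM in OG, so the groups overlapped (log2 fold change -0.91 ± 0.56, adjusted p 0.165). Without the CD44+ library of R26 animal 2 that Dbp change was -0.12 (adjusted p 0.821), without R26 animals 2 and 8 it was -0.31, and with voom it was -0.43. Dbp shares 539 exonic bases, 18% of its exons, with Sphk2 on the opposite strand, a sphingosine kinase gene that was at 73.4 ± 2.52 and 69.9 ± 3.33 CPM in R26 and OG CD44- cells (adjusted p 0.299).

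Clock (chromosome 5, 76209868 to 76304792, minus strand), which encodes the activator, had the smallest change of the genes called in CD44- cells. It was at 118 ± 2.35 CPM in R26 and 130 ± 3.6 CPM in OG CD44- cells without overlap (log2 fold change 0.14 ± 0.05, adjusted p 0.0162). That call was lost in 6 of 9 other settings, at 0.02 to 0.08 (adjusted p 0.141 to 0.788). These were DESeq2 size factors, the DESeq2 Wald test, the stricter count filter, only the 8 libraries compared, TMM against OG 7 CD44-, and R26 animals 2 and 8 left out. It was also lost without any 1 of the 8 R26 libraries, where the change was 0.01 to 0.04. Leaving out any of those libraries, of either fraction, moved the median of all genes by -0.109 to -0.107 in this comparison. The loss of the call is therefore not read as the effect of a particular animal. Without the CD44- library of OG animal 6 the adjusted p of Clock was 0.052. In CD44+ cells Clock was at 109 ± 6.31 and 107 ± 6.94 CPM (log2 fold change -0.02 ± 0.05, adjusted p 0.7). Libraries of OG and R26 did not overlap for 6 of the 10 genes in CD44- cells and for 6 in CD44+ cells, beside 67.6% and 57.7% of all genes.

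**Figure D2:**
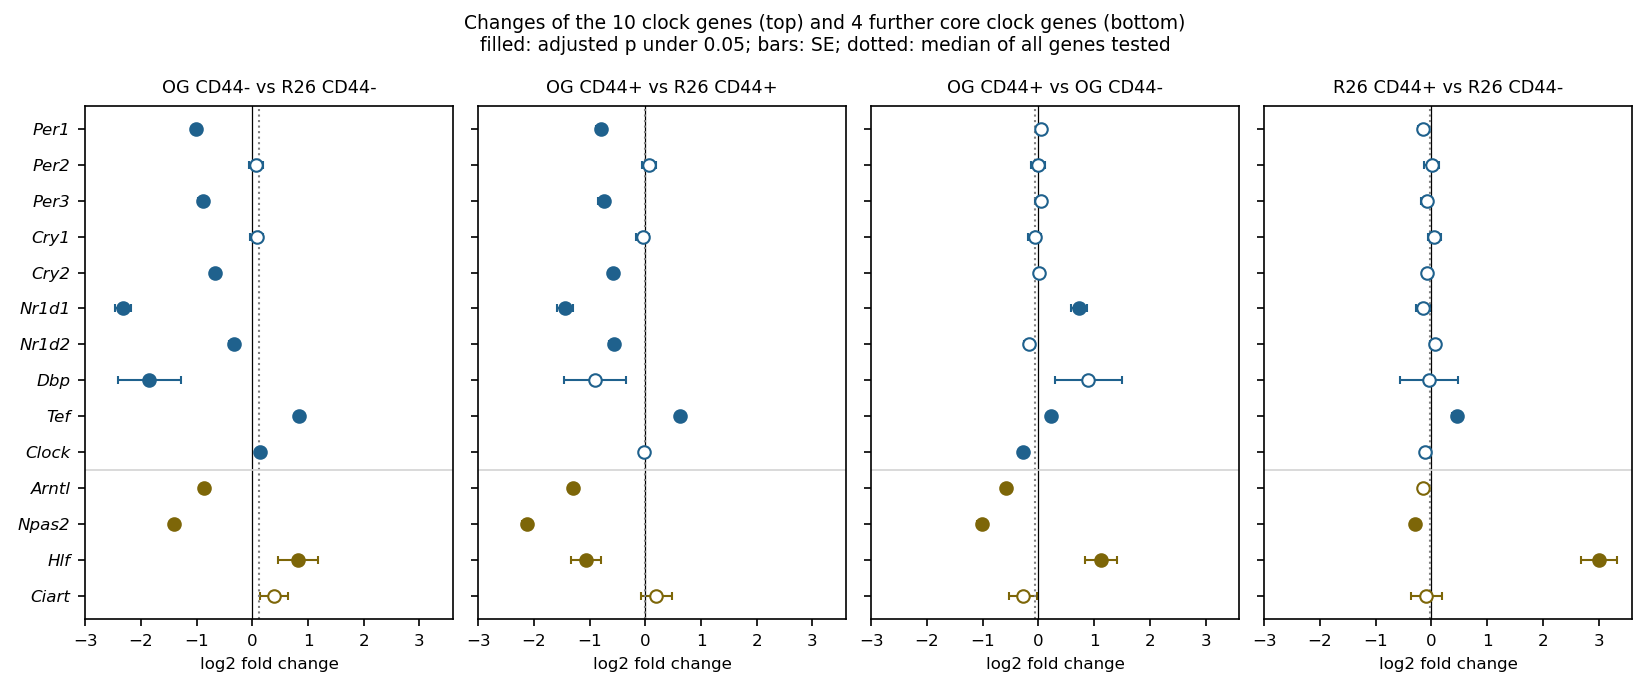
Log2 fold changes with SE from edgeR (horizontal axis) for the 10 clock genes and, below the line, Arntl, Npas2, Hlf and Ciart in the 4 comparisons of groups. Filled points passed an adjusted p of 0.05 and the dotted line is the median of all 15516 genes; in both OG against R26 panels Nr1d1, Per1, Per3, Cry2, Arntl and Npas2 lie left of 0 and Tef lies right of it.

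The partners of the loop outside the 10 genes were read from a list of 11 further core clock genes, of which 10 were tested. In CD44- cells 4 of them were higher and 4 lower in OG, and in CD44+ cells 4 were higher and 5 lower, with medians of 0.15 and -0.13. Arntl, which encodes BMAL1 and whose printed window carries the ROR element, was at 63.2 ± 4.78 CPM in R26 CD44- cells and 34.6 ± 1.87 CPM in OG CD44- cells (log2 fold change -0.87 ± 0.07, adjusted p 1.44e-10). In CD44+ cells Arntl was at 56.9 ± 6.10 and 23.3 ± 1.38 CPM (log2 fold change -1.29 ± 0.08, adjusted p 3.58e-13). Npas2 was at 67.4 ± 4.55 and 25.6 ± 1.88 CPM in CD44- cells (log2 fold change -1.40 ± 0.08, adjusted p 2.60e-13) and at 55.1 ± 8.07 and 12.7 ± 0.203 CPM in CD44+ cells (log2 fold change -2.12 ± 0.09, adjusted p 8.82e-16). Neither gene overlapped between OG and R26 in either fraction. Nr1d1, known to repress Arntl and Npas2, and both of those genes were thus lower in OG. Hlf, the third PAR-domain bZIP gene, was low throughout at 0.250 to 5.94 CPM, and Ciart, a clock repressor gene, was at 1.07 to 2.80 CPM and passed the test in none of the comparisons.

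The difference log2 Nr1d1 minus log2 Arntl, taken within each library, does not depend on the scaling of libraries. In R26 animals it was 1.19 ± 0.31 in the CD44- and 1.19 ± 0.40 in the CD44+ fraction. In OG animals it was -0.25 ± 0.05 in the CD44- and 1.04 ± 0.17 in the CD44+ fraction. OG CD44- libraries, at -0.32 to -0.21, lay below all other libraries, and OG CD44+ libraries, at 0.89 to 1.27, lay within the R26 range. Only the change between groups is read from these values, since they carry no correction for gene length.

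The comparison of CD44+ with CD44- cells within a prefix came from the same animals, a pairing that the fit to 4 groups did not use. In OG animals Nr1d1 and Tef were higher and Clock was lower in CD44+ cells, and in R26 animals Tef was higher. These 3 and 1 of 10 genes stand beside 50.4% and 37.1% of all genes called, and whether the shares differ was not tested. Of all genes, 22.3% were higher and 28% lower in OG CD44+ cells, and 21.6% higher and 15.4% lower in R26 CD44+ cells. Which way calls fell depended on the scale in R26, where 58.4% of calls were higher as reported, 77.8% with library totals, 48.0% with DESeq2 size factors and 38.2% with TMM against OG 7 CD44-. The 10 genes had a median log2 fold change of 0.03 in OG and -0.07 in R26, where all genes had -0.06 and -0.02. Nr1d1 was 1.66-fold higher in OG CD44+ than in OG CD44- cells, from 27.6 to 31.1 CPM up to 43.3 to 61.1 CPM (log2 fold change 0.73 ± 0.15, adjusted p 0.001). Thra, the gene that overlaps it, was lower there (log2 fold change -0.29 ± 0.08, adjusted p 0.00363). In R26 cells Nr1d1 overlapped between the fractions (log2 fold change -0.15 ± 0.13, adjusted p 0.419). The difference of the CD44 effect between prefixes was 0.88 ± 0.20 for Nr1d1 (adjusted p 0.0056), the 1 member called of 10 beside 24.7% of all genes, of which 6.57% were called in the higher and 18.1% in the lower direction. Of the calls for that difference 26.6% were in the higher direction as reported, and 15.9% with library totals to 58.3% with TMM against OG 7 CD44-.

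Tef rose with CD44 in both prefixes, by 0.45 ± 0.08 in R26 (adjusted p 0.00014) and by 0.23 ± 0.08 in OG (adjusted p 0.0138), with no overlap between fractions in either. Without either library of OG animal 6 the OG call was lost, at 0.19 without the CD44- library (adjusted p 0.063) and 0.20 without the CD44+ library (adjusted p 0.0563), and without the CD44- library of R26 animal 8 the R26 change was 0.30. Leaving that R26 library out also moved the median of all genes in R26 by -0.074. The difference between the prefixes did not pass the test for Tef (-0.22 ± 0.11, adjusted p 0.173). Clock fell by 0.28 ± 0.05 in OG CD44+ cells (adjusted p 5.96e-05), from 127 to 135 CPM down to 97.0 to 113 CPM. In R26 CD44+ cells the Clock change was -0.12 ± 0.05 (adjusted p 0.0727), and it passed the test in several alternatives, with the animal as a block among them (adjusted p 0.0419). Dbp was higher in every OG CD44+ library than in every OG CD44- library, at 3.90 to 4.69 against 2.17 to 2.54 CPM. The spread of Dbp in R26 animals entered its test, which gave 0.90 ± 0.60 (adjusted p 0.236). With only the 8 OG libraries the change was 0.96 (adjusted p 5.80e-05), and with the animal as a block it was 0.89 ± 0.20 (adjusted p 2.57e-04). Groups did not overlap for 4 of the 10 genes in OG and for 1 in R26, beside 51% and 28.8% of all genes.

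With the animal as a block 5 members passed in OG, where Dbp and Nr1d2 (-0.18, adjusted p 0.00497) joined, and 3 passed in R26, where Per1 (-0.16 ± 0.04, adjusted p 0.00174) and Clock joined. Of all genes 55.3% passed in OG and 42.5% in R26 with the block, and 32.1% passed for the difference between prefixes. For that difference 4 members passed, with Dbp (1.0 ± 0.27, adjusted p 0.00326), Per1 (0.21, adjusted p 0.00819) and Nr1d2 (-0.25, adjusted p 0.0118) added to Nr1d1. Among the further core genes Arntl fell by 0.57 ± 0.08 and Npas2 by 1.01 ± 0.10 in OG CD44+ cells (adjusted p 1.92e-06 and 8.40e-09). Bhlhe40, which encodes the repressor DEC1, was at 137 ± 4.83 CPM in OG CD44- and 280 ± 18 CPM in OG CD44+ cells (log2 fold change 1.03 ± 0.07, adjusted p 3.85e-11). Hlf was higher in R26 CD44+ than in R26 CD44- cells, at 3.59 to 5.94 against 0.250 to 0.724 CPM (log2 fold change 3.01 ± 0.32, adjusted p 6.42e-08). Of the 10 further genes tested, 3 were higher and 3 lower in OG CD44+ cells, and 4 were higher and 1 lower in R26 CD44+ cells.

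The test between animals asked whether animals of 1 prefix differed in the mean over their 2 libraries, as an animal taken at another time of day would. It does not require both libraries of an animal to move the same way. Of the 10 genes 5 were called, Dbp, Per2, Nr1d1, Per1 and Nr1d2, against 8.12% of all genes (edgeR quasi-likelihood F test of 6 animal terms, adjusted p under 0.05). Of the 4 R26 animals, both libraries lay on the same side of their group means in 3 for Per1, Per2 and Nr1d1. For Dbp and Nr1d2 this held in 2. Testing only the R26 animal terms, the same 5 genes were called, against 11.5% of all genes. Testing only the OG animal terms, none of the 10 was called, against 0.438% of all genes. Both tests came from 1 fit to all 16 libraries, so the spread of R26 libraries also entered the OG test. In OG animals 3 of the 10 had an unadjusted p under 0.05, Per1, Nr1d1 and Nr1d2. The median F of the 10 genes was 6.39 between R26 animals and 1.14 between OG animals, where all genes had 1.44 and 0.73. Whether the R26 animals spread more than the OG animals was not tested.

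Dbp had the largest F of the 10, at 18.4 over all animals (adjusted p 7.53e-08) and 36.6 over R26 animals (adjusted p 3.71e-09). R26 animal 2 was highest in both of its libraries, at 15.0 and 19.4 CPM, and R26 animal 8 was lowest in both, at 2.33 and 3.39 CPM, with R26 animals 1 and 7 between them at 5.34 to 8.93 CPM. The highest R26 CD44- library held 6.45-fold the level of the lowest, whereas the OG CD44- libraries spanned 1.17-fold. Nr1d1 was lowest in R26 animal 8 in both fractions, at 115 and 105 CPM, where the other R26 libraries were at 125 to 159 CPM (F 7.69, adjusted p 0.00518). Nr1d2 was also lowest in that animal in both, at 51.7 and 58.2 CPM, and highest in R26 animal 7, at 71.6 and 75.6 CPM (F 6.98, adjusted p 0.00137). Per2 was at 34.1 and 37.7 CPM in R26 animal 2 and at 33.7 and 35.5 CPM in animal 8, and at 49.8 and 40.5 CPM in animal 1 and 47.4 and 51.2 CPM in animal 7 (F 7.38, adjusted p 9.01e-04). Thus R26 animals 2 and 8 lay apart for Dbp and together for Per2. Per1 was lowest in R26 animal 2, at 233 and 195 CPM (F 7.25, adjusted p 0.00102).

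Of the genes not called between animals, Cry1 was highest in R26 animal 8 in both fractions, at 22.3 and 22.0 CPM, where the other R26 libraries were at 15.6 to 20.5 CPM (adjusted p 0.148). Arntl was also highest there in both, at 69.4 and 64.0 CPM (adjusted p 0.361). R26 animal 8 thus held the lowest Dbp and Nr1d1 and the highest Arntl of the R26 animals, in each fraction. Npas2 was highest in that animal in CD44- cells only, at 73.1 CPM (adjusted p 0.661 between animals). In CD44+ cells Npas2 was at 58.2 CPM in R26 animal 8, below R26 animals 1 and 7 at 59.6 and 59.4 CPM. The further core clock list gave 0 of 10 called between animals over all 8, where 2 had an unadjusted p under 0.05. When only the R26 animal terms were tested, 1 of the 10 was called, Bhlhe40 (adjusted p 0.0418).

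**Figure D3:**
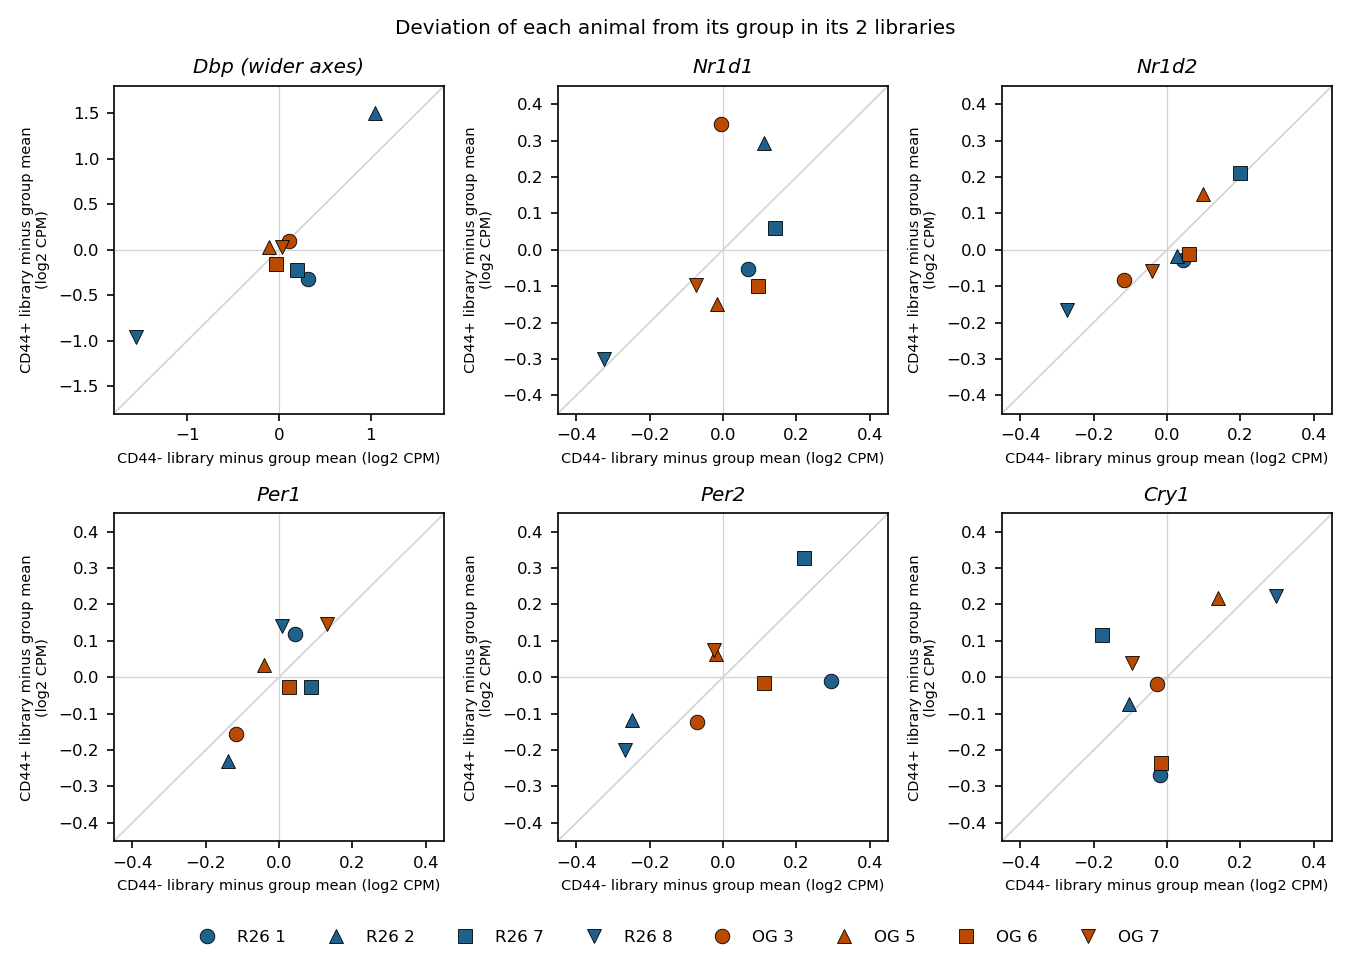
For 6 clock genes, the log2 CPM of an animal's CD44- library minus its group mean (horizontal) against that of its CD44+ library (vertical); 1 point per animal, blue for R26 and orange for OG, with equal values on the diagonal. Dbp has wider axes: R26 animal 2 lies at the upper right and R26 animal 8 at the lower left, and the OG animals lie near 0.

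Other gene lists differed between animals as well. Glucocorticoid targets gave 8 of 12 called over all 8 animals and AT2 markers 6 of 9, while 3 of 10 clock output genes and 7 of 20 immediate early genes were called. Por, Wee1 and Tsc22d3 were the clock outputs called, with adjusted p of 1.06e-04, 0.0137 and 8.74e-04, and Tsc22d3 is also counted among the glucocorticoid targets. Club and secretory markers gave 3 of 6, endothelial markers 1 of 7 and fibroblast and mural markers 0 of 8. Scgb1a1 (F 43.6) and Cyp2f2 (F 27.5), both club and secretory markers, had a larger F than Dbp (18.4). For the R26 animal terms only, AT2 markers gave 7 of 9, clock outputs 5 of 10 and club and secretory markers 3 of 6. For the OG terms only, they gave 0, 0 and 2. The summed AT2 markers were at 132236 CPM in the CD44+ library of R26 animal 2 and at 91991 to 94078 CPM in the other R26 CD44+ libraries, the animal and fraction in which Dbp was highest. In R26 CD44- cells the AT2 sum was at 163977 CPM in animal 2 and 145233 CPM in animal 8, with 139371 and 157715 CPM in the others. Their part in the differences between animals was not tested. Without both libraries of R26 animal 7 the clock genes called fell to 2 (Dbp and Per1), without those of R26 animal 8 to 3 (Dbp, Per1 and Per2), and leaving out any other animal kept all 5.

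**Figure D4:**
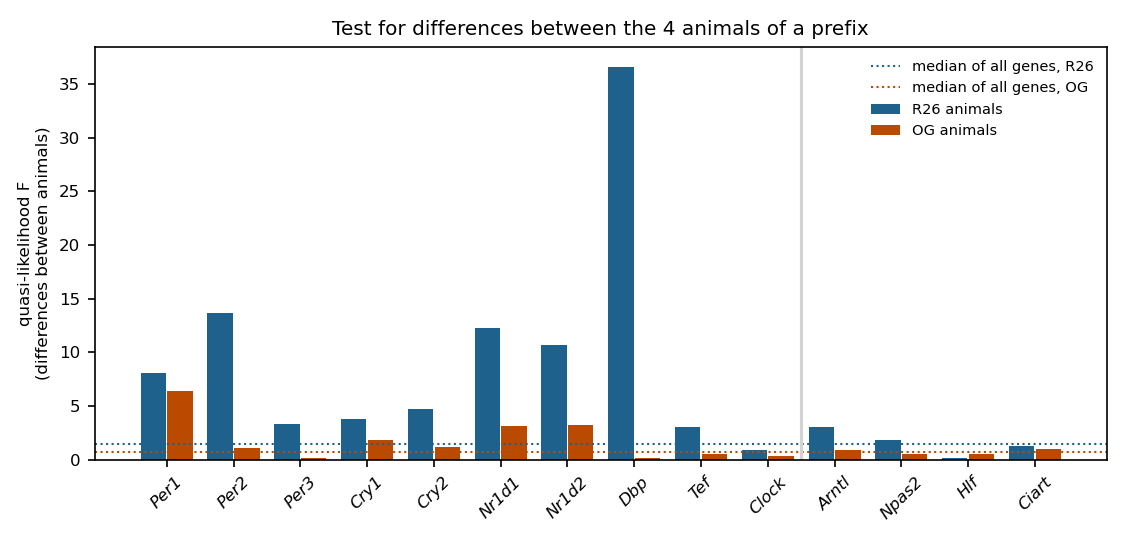
Quasi-likelihood F (bars from 0) of the test for differences between the 4 animals of a prefix, in R26 (blue) and OG (orange), for the 10 clock genes and, right of the line, Arntl, Npas2, Hlf and Ciart. Dotted lines are the medians of all genes, 1.44 in R26 and 0.73 in OG; Dbp in R26 animals reaches 36.6 and no clock gene passed the adjusted test in OG animals.

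Deviations of Dbp from its group means over the 16 libraries were set beside those of 10742 other genes with a mean log2 CPM of at least 2, as a description. Each animal gave 2 of the libraries, and those of R26 animals 2 and 8 lay farthest from the Dbp group means. The genes most like Dbp were Hsdl1, Tcn2, Fasn, H4c4, Rab1b, Trappc4, Nadk, Atp5b, Got2 and Sdc1, with Pearson r of 0.90 to 0.88. Those least like it were Kif5b, Ddx21, Slk, Mpp6 and Morf4l1b, with r of -0.90 to -0.93. Fasn, which encodes fatty acid synthase, was at 5743 CPM in the CD44- library of R26 animal 2 and at 4571 CPM in that of R26 animal 8. Among the clock genes Nr1d1 had r of 0.77 with Dbp, Tef 0.75 and Nr1d2 0.43, and Per1 had -0.55, Cry1 -0.50, Arntl -0.69 and Npas2 -0.71. The remaining clock genes lay nearer 0, with Per2 at 0.12, Per3 at 0.10, Cry2 at -0.06, Hlf at -0.10, Clock at -0.26 and Ciart at -0.33.

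Genes that modify or follow the clock were read from lists of 16 kinases and turnover factors and 10 known outputs. In OG against R26 CD44- cells 7 of the 16 were higher and 5 lower, and in CD44+ cells 6 were higher and 6 lower, with medians of 0.04 and -0.08. Sirt1, a deacetylase that acts on the loop, was at 54.8 ± 1.85 and 25.8 ± 0.578 CPM in R26 and OG CD44- cells (log2 fold change -1.09 ± 0.08, adjusted p 2.40e-11). Fbxw11, a ubiquitin ligase subunit known to target PER proteins, was at 97.6 ± 1.53 and 131 ± 3.62 CPM (log2 fold change 0.43 ± 0.04, adjusted p 7.16e-09). Of the outputs 5 were higher and 4 lower in each fraction, with medians of 0.10 and 0.19. Cdkn1a, which encodes the cell cycle inhibitor p21, was at 103 ± 8.30 and 283 ± 5.17 CPM in CD44- cells (log2 fold change 1.46 ± 0.06, adjusted p 4.42e-16). Herpud1, a gene of the endoplasmic reticulum stress response, was at 363 ± 15.9 and 194 ± 10.7 CPM (log2 fold change -0.90 ± 0.05, adjusted p 1.91e-14). In OG CD44+ against CD44- cells 0 of the 16 were higher and 4 lower, and 5 of the 10 outputs were higher and 2 lower.

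Per1 belongs to the early-response genes, and that class moved with the same groups. Of 20 immediate early genes 1 was higher and 17 lower in OG CD44- cells, with a median log2 fold change of -2.33, and 1 was higher and 18 lower in OG CD44+ cells, with a median of -1.86. Their summed level was 9706 to 12853 CPM in the R26 libraries and 2494 to 4339 CPM in the OG libraries. Fos was at 1528 ± 153 and 193 ± 3.78 CPM in R26 and OG CD44- cells, and Ier2 at 265 ± 7.95 and 45.4 ± 1.02 CPM. Within OG 17 of the 20 were higher and 1 lower in CD44+ cells, where Per1 was not called (0.05 ± 0.08, adjusted p 0.659). Of 12 glucocorticoid targets 4 were higher and 7 lower in OG CD44- cells, and 5 were higher and 7 lower in OG CD44+ cells. Fkbp5, an immunophilin gene that glucocorticoids induce, was at 4.68 ± 0.801 and 31.4 ± 3.49 CPM in CD44- cells (log2 fold change 2.74 ± 0.12), and Errfi1, an inhibitor of EGF receptor signalling, at 1804 ± 114 and 508 ± 31.2 CPM (log2 fold change -1.83 ± 0.07). The part of early-response or glucocorticoid-driven transcription in the level of Per1 was not tested.

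The cell type markers moved with the groups too. Of 9 AT2 markers all 9 were lower in OG in each fraction, and lower in CD44+ cells in each prefix. All 7 markers of the transitional-cell list (Krt8, Krt18, Krt19, Krt7, Cldn4, Sfn and Lgals3) were higher in OG in each fraction, with a summed level of 461 to 498 CPM in R26 CD44- and 2711 to 2735 CPM in OG CD44- libraries. Of 8 AT1 markers 7 were higher and 0 lower in OG CD44- cells, and 5 higher and 3 lower in OG CD44+ cells. The summed level of 8 fibroblast and mural markers was 285 to 345 CPM in R26 CD44-, 991 to 1815 CPM in R26 CD44+, 1323 to 1348 CPM in OG CD44- and 2420 to 3721 CPM in OG CD44+ libraries. For 8 leukocyte markers it was 20.9 to 25.7, 53.6 to 82.8, 33.9 to 38.9 and 39.6 to 57.0 CPM in the same order. For 7 endothelial markers it was 133 to 152, 178 to 192, 174 to 184 and 105 to 110 CPM. For 7 ciliated markers it was 469 to 567, 738 to 1062, 931 to 974 and 1253 to 1616 CPM. For 6 club and secretory markers it was 561 to 1179, 1826 to 3315, 635 to 756 and 1840 to 2534 CPM. A sum weighs most on its most abundant gene. In the R26 1 CD44- library Esam held 1490 counts and Egfl7, the next endothelial marker, 151. Gene by gene, 6 endothelial markers were higher and 1 lower in R26 CD44+ than in R26 CD44- cells (median log2 fold change 2.21). Within OG 0 were higher and 5 lower in CD44+ cells (-0.73). Against R26, 3 were higher and 1 lower in OG CD44- (0.29), and 0 higher and 6 lower in OG CD44+ cells (-2.50). In the R26 1 CD44- library Sparc (2716 counts) and Sec14l3 (4832) led the fibroblast and ciliated lists. The leukocyte marker Cd68 held 146 counts there and Ptprc 2, against 115 and 54 in the R26 1 CD44+ library. Of 7 leukocyte markers tested, 6 rose and 0 fell with CD44 in R26 (3.17), and 5 rose and 1 fell in OG (1.81). All 8 fibroblast and mural markers rose in both (3.19 and 1.19). Ciliated markers rose for 6 of 7 in R26 (1.55) and 7 of 7 in OG (1.68). No marker of these lists was at 0 in all libraries of a group. In bulk RNA fewer cells of a type and less RNA per cell cannot be told apart, and the part of cell makeup in the clock gene differences was not tested.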

How the data were processed

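The deposited table holds raw counts per gene, whole numbers with no normalization, for 16 libraries from sorted AT2 cells of 8 mice. Per the labels' protocols, libraries were made with a stranded total RNA kit after removal of ribosomal RNA. Per the submitters' processing notes, reads were aligned with Bowtie2 to mm10, with no version. The counting program, annotation and strand setting are not given in the sources used here, so reads of overlapping genes on opposite strands may have been assigned to either. Sorts were read from the column names, and 0 columns belonged to other samples. Symbols were matched for 25275 of 27179 identifiers (93.0%), and coordinates and exonic lengths come from an mm10 annotation.

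Tests used R 4.3.3 and edgeR 4.0.16. Genes were kept by filterByExpr, libraries were scaled by TMM, and the quasi-likelihood F test (robust) was fitted to the 16 libraries as 4 groups. A call is an adjusted p under 0.05 by Benjamini-Hochberg over 15516 genes. SEs of log2 fold changes were derived from the estimate and its F. CPM are counts over the TMM-scaled library totals, with a prior count of 2 added for log2 values. A second model with a term for each animal tested 6 animal coefficients. The fits were tested on simulated data. The lowest and highest total were 9022471 and 21363816 counts, and reads carried no molecular tags, so counting error is a lower limit of the error.

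The members and lists were chosen with earlier results of these data known. The 10 members are all named, as are Arntl, Npas2, Hlf and Ciart. Up to 4 genes per list with the smallest adjusted p could be named, and not all are reported here. The genes like Dbp were taken by Pearson r of within-group deviations, the 10 highest and 5 lowest, with predicted genes passed over. The column names give each animal 2 libraries, and the study states 4 lungs for each genotype. Deviations from the group means over genes correlated at 0.02 to 0.24 between libraries of 1 animal, and for all 8 animals this was the highest r with any library of the other fraction in that prefix. The labels do not say how lungs were collected, so p-values of the fits to 4 groups measure the spread between these animals. Those fits took the 2 libraries of an animal as independent. Their tests of CD44+ against CD44- cells and of the difference between prefixes thus ignored the pairing. In fits with a term for each animal, p-values rest on the spread left between the 2 libraries of an animal.

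Alternatives were DESeq2 size factors, library totals, the animal as a block, the DESeq2 1.42.0 Wald test, a fit restricted to the 8 libraries compared, no low-count filter or one of 50 counts in 4 libraries, limma 3.58.1 voom with sample quality weights, and each library left out in turn. TMM against the OG 7 CD44- library, tests of the animal terms of 1 prefix, and leaving out R26 animals 2 and 8 were added after seeing the data. Libraries of a group were compared by chi-square, and no pair differed by less than sampling noise.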

Additional observations from a re-analysis of the deposited data

Results flagged for a closer look

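Of 92 groups of 4 libraries tested, 10 held a library farther from the other 3 than 95% of random groups would, and chance alone flags about 1 in 20 groups. Nr1d1 was at 61.1 CPM in OG animal 3 of the OG CD44+ group, where the others were at 43.3 to 44.9 CPM. Dbp was at 19.4 CPM in the CD44+ library of R26 animal 2. Clock was at 118 CPM in the CD44+ library of R26 animal 8, and Npas2 was at 43.0 CPM in that of R26 animal 2. In the CD44- library of R26 animal 2, Hlf was at 0.250 CPM and Ciart at 1.58 CPM, each the lowest of its group. These rest on few counts, 3 for Hlf and 19 for Ciart. The other R26 CD44- libraries held 8 to 11 counts of Hlf and 24 to 31 of Ciart. Bhlhe40 was at 306 CPM in the CD44+ library of OG animal 3. In OG CD44- cells Cdkn1a was at 291 CPM in animal 6, and Herpud1 at 178 CPM and Errfi1 at 461 CPM in animal 3.

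The effect of CD44 differed between OG and R26 animals, by the test of the difference itself, for 7 named genes (OG minus R26, log2). It was 0.88 for Nr1d1, 0.96 for Fos, 0.85 for Bhlhe40 and 0.32 for Herpud1. It was -0.73 for Npas2, -1.88 for Hlf and -0.42 for Arntl. The Arntl difference lost its call without the CD44- library of R26 animal 1, 2 or 7 or the CD44+ library of R26 animal 7 or 8, where it was -0.24 to -0.30, and with TMM against OG 7 CD44- (-0.27). In those fits the median of all genes moved by 0.119 to 0.155. The Hlf difference was -1.32 with R26 animals 2 and 8 left out and did not pass the test there.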

How the results depend on the processing

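Of the recomputed log2 fold changes of named genes, 2557 kept their direction and side of the threshold, 65 lost the threshold, 102 passed it and 187 changed sign. The calls of Nr1d1, Per1, Per3, Cry2 and Tef between prefixes held in both fractions under every alternative run. Values near 0 changed sign as follows, and the cause was not tested. In OG CD44+ against OG CD44- Per2 was 0.015 with DESeq2 size factors, 0.010 with library totals, 0.015 with the DESeq2 Wald test, 0.043 with the 50-count filter, 0.058 with only the 8 libraries compared, 0.015 with voom, 0.053 with TMM against OG 7 CD44-, 0.044 with R26 animals 2 and 8 left out and -0.030 to 0.046 with 1 library left out. Sirt1 was 0.024 with the 50-count filter, 0.041 with only the 8 libraries compared, 0.035 with TMM against OG 7 CD44-, 0.026 with R26 animals 2 and 8 left out and -0.090 to 0.043 with 1 library left out. Herpud1 was 0.015 with only the 8 libraries compared, 0.0090 with TMM against OG 7 CD44- and -0.089 to 0.0015 with 1 library left out. Cry2 was -0.0053 to 0.067 with 1 library left out. Per3 was -0.00031 to 0.095 with 1 library left out. Cry1 was -0.15 to 0.0014 with 1 library left out. Per1 was -0.0080 to 0.094 with 1 library left out. In R26 CD44+ against R26 CD44- Per2 was -0.042 with DESeq2 size factors, -0.044 with the DESeq2 Wald test, -0.015 with voom, -0.095 with TMM against OG 7 CD44-, -0.16 with R26 animals 2 and 8 left out and -0.20 to 0.027 with 1 library left out. Per3 was 0.0017 with library totals. Cry2 was 0.0062 with library totals. Dbp was 0.034 with library totals and -0.89 to 0.28 with 1 library left out. Ciart was 0.0037 with library totals and 0.17 with R26 animals 2 and 8 left out. Sirt1 was 0.045 with library totals and 0.0055 with R26 animals 2 and 8 left out. Fbxw11 was 0.023 with library totals. Cry1 was -0.046 with TMM against OG 7 CD44- and -0.10 to 0.098 with 1 library left out. Nr1d2 was -0.035 with TMM against OG 7 CD44-, -0.048 with R26 animals 2 and 8 left out and -0.093 to 0.064 with 1 library left out. Ier2 was -0.036 with TMM against OG 7 CD44- and -0.043 to 0.061 with 1 library left out. In OG against R26 in CD44- cells Per2 was -0.019 with only the 8 libraries compared, -0.028 with TMM against OG 7 CD44-, -0.28 with R26 animals 2 and 8 left out and -0.13 to 0.096 with 1 library left out. Cry1 was -0.015 with only the 8 libraries compared, -0.018 with TMM against OG 7 CD44- and -0.088 to 0.11 with 1 library left out. In OG against R26 in CD44+ cells Cry1 was 0.050 with library totals, 0.0020 with no filter, 0.015 with TMM against OG 7 CD44-, 0.054 with R26 animals 2 and 8 left out and -0.12 to 0.052 with 1 library left out. Clock was 0.072 with library totals, 0.022 with no filter, 0.035 with TMM against OG 7 CD44-, 0.047 with R26 animals 2 and 8 left out and -0.046 to 0.035 with 1 library left out. Per2 was -0.068 with R26 animals 2 and 8 left out. Ciart was -0.18 with R26 animals 2 and 8 left out. In the difference between prefixes Per2 was 0.056 with DESeq2 size factors, 0.059 with the DESeq2 Wald test, 0.0057 with the 50-count filter, 0.029 with voom, 0.15 with TMM against OG 7 CD44-, 0.21 with R26 animals 2 and 8 left out and -0.031 to 0.24 with 1 library left out. Fbxw11 was 0.055 with DESeq2 size factors, 0.052 with the DESeq2 Wald test, 0.0041 with the 50-count filter, 0.15 with TMM against OG 7 CD44-, 0.087 with R26 animals 2 and 8 left out and -0.026 to 0.14 with 1 library left out. Errfi1 was 0.052 with DESeq2 size factors, 0.052 with the DESeq2 Wald test, 0.0013 with the 50-count filter, 0.15 with TMM against OG 7 CD44-, 0.024 with R26 animals 2 and 8 left out and -0.054 to 0.16 with 1 library left out. Sirt1 was -0.052 with library totals, -0.060 with voom and -0.041 to 0.20 with 1 library left out. Cry1 was 0.033 with TMM against OG 7 CD44- and -0.20 to 0.081 with 1 library left out. Tef was 0.065 with R26 animals 2 and 8 left out. Clock was 0.029 with R26 animals 2 and 8 left out and -0.19 to 0.0022 with 1 library left out. Ciart was -0.30 to 0.20 with 1 library left out. The members called in R26 CD44+ against R26 CD44- were 3 with DESeq2 size factors (42.6% of all genes), 3 with the DESeq2 Wald test (42.4% of all genes), 4 with TMM against OG 7 CD44- (50.3% of all genes) and 5 with R26 animals 2 and 8 left out (40.8% of all genes). The members called in the difference between prefixes were 3 with library totals (27.8% of all genes), 3 with TMM against OG 7 CD44- (26.2% of all genes) and 4 with R26 animals 2 and 8 left out (24% of all genes). With 1 library left out, the members called were 1 to 4 in R26 CD44+ against CD44- (all genes 36.1% to 48.9%) and 1 to 3 in the difference between prefixes (all genes 20.9% to 28.8%). With the animal as a replicate block (the pairing of an animal's 2 libraries) the members called were 5 in OG, 3 in R26 and 4 in the difference, and no other member call changed. The OG against R26 comparisons could not be fitted with the block, since an animal has 1 prefix. Between animals the genes called were 756 to 1467 and the members 2 to 5 when 1 animal was left out. They were 68 and 0 when only the OG animal terms were tested. Library totals moved the median of all genes by 0.17 in OG against R26 CD44- cells, and TMM against OG 7 CD44- moved it by 0.15 in the difference between prefixes. Leaving out 1 R26 library, of either fraction, moved that median by -0.109 to -0.107 in OG against R26 CD44- cells. The same fits moved it by -0.075 to -0.065 in R26 CD44+ against CD44- cells and by 0.114 to 0.123 in the difference between prefixes. Depth limits Dbp, Hlf and Ciart most, at a few CPM.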

Other observations

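Libraries of 1 group differed by more than sampling noise in every pair, by a chi-square of 1.66 to 18.6 per gene. The R26 CD44+ library of animal 2, which held the highest Dbp level, gave 17.4 to 18.6 against the other R26 CD44+ libraries, which gave 7.80 to 11.7 among themselves. The OG CD44+ library of animal 3, which held the highest Nr1d1 level of its group, gave 8.38 to 9.06 against the others, which gave 1.66 to 3.27 among themselves. With R26 animals 2 and 8 left out, a setting chosen after seeing their Dbp levels, Dbp fell by 0.71 in R26 CD44+ against CD44- cells. Its CD44 difference between prefixes was 1.65 there. Those animals held the highest and the lowest Dbp of R26, so leaving them out narrowed its spread by choice. Only R26 animals 1 and 7 remained, and no p is given for these values.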
